A study of Mus musculus with 8 samples.

Results

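The genes described here are 8 genes of the mevalonate and cholesterol pathway that are known targets of the transcription factor SREBP2: Hmgcs1, Idi1, Fdps, Fdft1, Sqle, Lss, Cyp51 and Insig1. They were chosen by name, and the table held 9 features (array spots) for them, of 62976 features and 20738 named genes in all. Fdft1 had 2 features and the other genes 1 each. Livers were taken from CD-1 males (CD-1 is an outbred mouse stock) fed NaPB, sodium phenobarbital, at 2500 ppm for 7 days (4 arrays) or fed 0 ppm as controls for the same time (4 arrays). No genotype, transgene or age is given in the labels. Total RNA was measured on single-colour Agilent arrays, and the comparison asks whether the liver transcripts of these genes differed between the diets. The labels leave unsaid whether each array is its own mouse; a p-value here reflects the spread among samples, which may be technical.

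Liver cells make cholesterol from acetyl-CoA through mevalonate, farnesyl diphosphate, squalene and lanosterol. When sterols in the membrane of the endoplasmic reticulum run low, the escort protein SCAP carries SREBP2 to the Golgi, where proteases release its active part, which then switches on the genes of this pathway. When sterols are plentiful, the INSIG proteins hold SCAP and SREBP2 back. Phenobarbital acts in mouse liver through the nuclear receptor CAR, and a P450 reductase that it is known to induce also supplies electrons to enzymes of sterol synthesis.

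On the NaPB diet none of the 8 genes passed the test, in either direction. With limma over all genes, 0 of 8 had an adjusted p below 0.05, against 1.01% of all genes, and 0 of 8 had an unadjusted p below 0.05, against 10.1% of all genes. The median log2 difference, NaPB minus control, was 0.33 over the 8 genes and 0.01 over all genes. The values of the diets overlapped for all 8 genes, whereas they did not overlap for 7.04% of all genes. On NaPB replicates 1, 2 and 3 most of these transcripts lay above every control array, and on NaPB replicate 4 most lay below every control array.

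NaPB replicate 4 and control replicate 1 stand apart from the other arrays over the whole table. They had the lowest limma array weights, 0.313 for NaPB replicate 4 and 0.308 for control replicate 1. The ratio of the 99th to the 75th percentile of intensity was 62.3 on NaPB replicate 4 and 107 to 125 on the other NaPB arrays, and it was 65.8 to 124 on the control arrays. The results of the members are therefore given with all arrays and without NaPB replicate 4, and without both where that changed a call. In bulk tissue, fewer cells of a type and less RNA per cell cannot be told apart. The 6 hepatocyte markers were above the floor on every array, and their summed intensity was 3194 to 4600 with NaPB, lowest on NaPB replicate 4, and 3978 to 6437 in controls.

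The promoters of 5 of the 8 genes matched the RefSeq promoter table (mouse build GRCm38.p6; each window runs from 250 bases before a transcript start to 50 after it). Sqle, Fdps and Fdft1 were not matched. The windows of 4 genes are shown because Hmgcs1, Idi1 and Insig1 had the widest swings between NaPB arrays among the brighter members, while Lss did not swing with them. Capitals mark matches, on either strand, to a core of the sterol regulatory element, TCACNCCA, or to the box bound by NF-Y, CCAAT, which reads ATTGG on the other strand. No match of either motif overlapped another. The windows are chr13:119690101-119690400 (plus strand) for Hmgcs1, chr13:8885356-8885655 (plus strand) for Idi1, chr5:28071162-28071461 (plus strand) for Insig1 and chr10:76531355-76531654 (plus strand) for Lss, each read from 5′ to 3′ along its gene.
Hmgcs1: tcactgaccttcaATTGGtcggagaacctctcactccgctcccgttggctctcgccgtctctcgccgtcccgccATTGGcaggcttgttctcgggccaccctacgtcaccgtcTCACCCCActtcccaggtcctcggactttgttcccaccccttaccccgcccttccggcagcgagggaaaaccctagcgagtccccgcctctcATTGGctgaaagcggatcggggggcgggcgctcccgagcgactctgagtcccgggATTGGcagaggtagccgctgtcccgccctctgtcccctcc
Idi1: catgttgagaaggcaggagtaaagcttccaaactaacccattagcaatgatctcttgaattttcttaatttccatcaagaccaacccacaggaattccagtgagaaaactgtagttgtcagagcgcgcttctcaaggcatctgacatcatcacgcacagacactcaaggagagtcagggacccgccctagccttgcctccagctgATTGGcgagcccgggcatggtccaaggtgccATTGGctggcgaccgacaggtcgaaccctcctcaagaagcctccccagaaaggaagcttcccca
Insig1: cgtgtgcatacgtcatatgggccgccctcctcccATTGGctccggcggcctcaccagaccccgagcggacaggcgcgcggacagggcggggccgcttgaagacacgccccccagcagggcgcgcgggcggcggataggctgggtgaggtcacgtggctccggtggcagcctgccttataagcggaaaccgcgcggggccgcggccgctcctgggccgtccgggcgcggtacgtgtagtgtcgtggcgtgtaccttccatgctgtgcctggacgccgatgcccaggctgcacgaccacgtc
Lss: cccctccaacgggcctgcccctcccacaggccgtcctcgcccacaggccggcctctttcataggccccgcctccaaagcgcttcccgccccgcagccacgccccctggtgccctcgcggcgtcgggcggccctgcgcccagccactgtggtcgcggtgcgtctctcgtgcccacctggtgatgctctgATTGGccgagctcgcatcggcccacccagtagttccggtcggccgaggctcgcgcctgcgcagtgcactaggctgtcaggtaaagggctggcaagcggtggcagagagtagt
The sterol element core was found in 1 of the 5 windows, that of Hmgcs1, with its first base at position −137 from the start, and in 4.36% of the 32851 windows of the table. CCAAT was found in 5 of the 5 windows and in 37.4% of all windows; Hmgcs1 held 4 matches, Idi1 held 2, and Insig1, Lss and Cyp51 held 1 each. These matches are letters in a window and no measurement of binding.

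Hmgcs1 encodes the cytosolic HMG-CoA synthase, which makes the HMG-CoA that is reduced to mevalonate. Its intensity was 64.7, 57.5, 76.1 and 5.02 on NaPB replicates 1 to 4, against 44.3, 21.4, 50.8 and 24.2 on control replicates 1 to 4. The first 3 NaPB arrays were above all controls, and the fourth was 4.26-fold below the lowest control and 13.1-fold below the mean of the other NaPB arrays. With these values the geometric means almost coincide, at 34.5 on the NaPB diet (log2 SD 1.86, n = 4) and 32.9 on the control diet (log2 SD 0.62, n = 4). The log2 difference was 0.07 ± 0.77 (limma SE; adjusted p = 0.988), with a 95% interval from −1.62 to 1.77. It was 1.00 ± 0.36 without NaPB replicate 4 (adjusted p = 0.243).

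Idi1, the isomerase that makes the building block dimethylallyl diphosphate, had intensities of 19.4, 20.9, 20.6 and 2.17 on the NaPB arrays, against 16.1, 6.05, 9.66 and 6.94 on the control arrays. Its first 3 NaPB values lay close together and above every control, while NaPB replicate 4 was 2.79-fold below the lowest control. Its log2 difference was 0.37 ± 0.69 (adjusted p = 0.913), and 1.18 ± 0.35 without NaPB replicate 4 (adjusted p = 0.163).

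Fdps makes farnesyl diphosphate, the branch point to sterols and to protein prenylation. Its intensity was 64.2, 54.8, 62.8 and 11.2 on the NaPB arrays, against 47.1, 21.0, 34.0 and 20.7 on the control arrays. The pattern is that of Idi1 with a shallower drop: NaPB replicate 4 was 1.84-fold below the lowest control and 5.39-fold below the other NaPB arrays. The log2 difference was 0.46 ± 0.55 (adjusted p = 0.856), and 1.07 ± 0.34 without NaPB replicate 4 (adjusted p = 0.187).

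Fdft1 encodes squalene synthase, the step that commits farnesyl diphosphate to sterols. Its brighter feature read 5.95, 6.51, 6.31 and 1.61 on the NaPB arrays, against 5.55, 3.69, 5.41 and 2.67 on the control arrays. The first 3 NaPB arrays cleared the highest control by 0.10 log2 units, the narrowest margin among the 6 genes where they did so. The log2 difference was 0.10 ± 0.47 (adjusted p = 0.968), and 0.59 ± 0.31 without NaPB replicate 4 (adjusted p = 0.455). The other feature of Fdft1 was dim, at 0.297 to 0.552 with NaPB and 0.0616 to 0.350 in controls, and NaPB replicate 4, at 0.349, was within the range of the other NaPB arrays. Control replicate 3, at 0.0616, was at the floor for that feature. The feature's log2 difference of 0.91 ± 0.51 (adjusted p = 0.662 over all features) therefore rests on a floor value. NaPB replicate 4 was above the floor there, at −0.10 log2 units from the other NaPB arrays, against −1.96 on the brighter feature. The dim feature, though brighter than that of Cyp51, thus did not show the drop on NaPB replicate 4. Why the features of Fdft1 differ was not tested.

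Sqle, squalene epoxidase, an oxygen-using step that draws on P450 reductase and a control point of the pathway, had the largest difference of the 8 genes. Its intensity was 14.4, 13.4, 13.1 and 3.29 on the NaPB arrays, against 6.91, 3.62, 6.80 and 3.13 on the control arrays. The first 3 NaPB arrays exceeded the highest control by 0.92 log2 units, the widest margin of the 8 genes, and NaPB replicate 4 lay among the lower controls instead of below them. The geometric means were 9.56 on the NaPB diet (log2 SD 1.03, n = 4) and 4.805 on the control diet (log2 SD 0.60, n = 4). The log2 difference was 0.99 ± 0.50 (adjusted p = 0.574; 95% interval −0.11 to 2.09). Without NaPB replicate 4 it was 1.504 ± 0.34 (adjusted p = 0.0736; 95% interval 0.73 to 2.28).

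Lss, lanosterol synthase, closes squalene epoxide into the first sterol ring system. Its intensity was 1.06, 1.28, 0.730 and 1.16 on the NaPB arrays, against 0.770, 0.958, 0.799 and 0.532 on the control arrays. NaPB replicate 4 was the second highest of the 8 arrays for Lss, and NaPB replicate 3 lay below 3 of the controls, an order that none of the other 7 genes showed. The log2 difference was 0.47 ± 0.30 (adjusted p = 0.699), and 0.42 ± 0.30 without NaPB replicate 4 (adjusted p = 0.634).

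Cyp51, the P450 that demethylates lanosterol, was read by a dim feature: 23.6% of genes were dimmer, against 63.8% to 97.2% for the other 7 genes. Its intensity was 0.449, 0.280, 0.313 and 0.0333 on the NaPB arrays, against 0.127, 0.179, 0.167 and 0.152 on the control arrays. NaPB replicate 4 was within 2 times the lowest value of its array and counts as at the floor, so its distance from the other arrays is a lower bound. The log2 difference was 0.30 ± 0.68 (adjusted p = 0.931), and 1.14 ± 0.27 without NaPB replicate 4 (adjusted p = 0.0839).

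Insig1, itself a target of SREBP2, encodes the protein that retains SCAP in the endoplasmic reticulum. Its intensity was 25.6, 32.1, 20.2 and 2.61 on the NaPB arrays, against 30.0, 16.3, 23.0 and 13.6 on the control arrays. Here the first 3 NaPB arrays lay inside the control range or just above it, and NaPB replicate 4 was 5.23-fold below the lowest control, the deepest such drop among the 7 genes off the floor; Cyp51, with a lower bound of 3.81-fold, cannot be ranked. Insig1 was the only member with a difference below 0 over all arrays, at −0.45 ± 0.69 (adjusted p = 0.887), and its difference was 0.37 ± 0.33 without NaPB replicate 4 (adjusted p = 0.709).

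**Figure D1:**
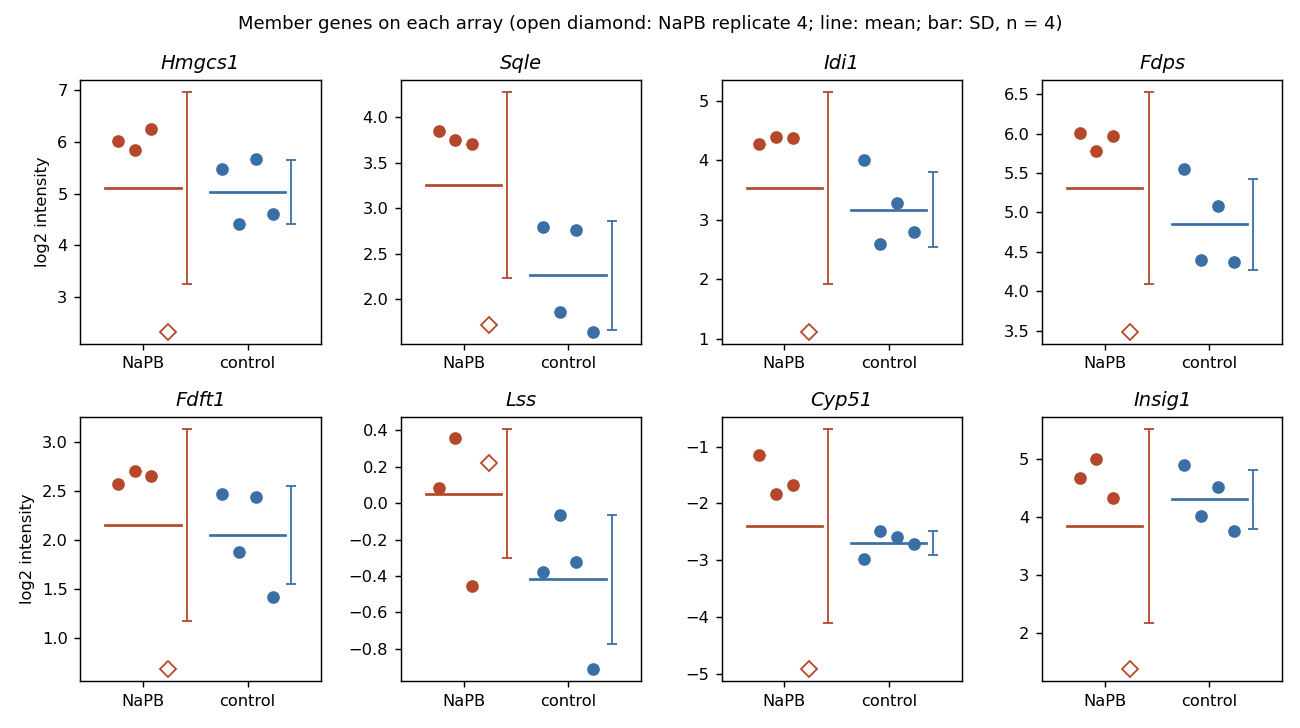
Log2 intensity of the 8 genes on each array, with the 4 NaPB arrays left of the 4 control arrays in each panel. Open diamonds are NaPB replicate 4, lines are means and bars are SDs (n = 4). The diamond is the lowest of the 8 points for 6 genes, lies among the lower controls for Sqle and near the top for Lss.

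NaPB replicate 4 was the lowest of the 8 arrays for 6 of the 8 genes. Over all genes it was lowest for 28.3%, and over the genes brighter than the median gene, to which 7 of the 8 belong, for 39.5%. NaPB replicates 1 to 3 were all above the highest control array for 6 of the 8 genes, against 10.2% of all genes and 15.8% of the brighter genes. The controls also had an order: replicates 1 and 3 were both above replicates 2 and 4 for 6 of the 8 genes, but this held for 37.5% of all genes and 51.9% of the brighter ones.

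The depth of the drop on NaPB replicate 4 differed among the members. As a log2 difference from the mean of NaPB replicates 1 to 3, it was −3.71 for Hmgcs1, −3.29 for Insig1, −3.23 for Idi1, −2.43 for Fdps, −2.05 for Sqle and −1.96 for Fdft1, while Lss was at 0.22. Cyp51 was at −3.35, a lower bound for the size of its drop because it was at the floor on that array. The median over the 8 genes was −2.83, against −0.20 over all genes. Bright genes were lower on this array in general: among the brightest decile of genes, which holds 5 of the 8, the median was −0.87 and the 5th percentile −2.02. All 5 members in that decile lay below this 5th percentile. Control replicate 2 had a ratio of the 99th to the 75th percentile (65.8) close to that of NaPB replicate 4 (62.3); the mean of the 8 genes on it was −0.24 log2 units from the control mean, against −1.57 on NaPB replicate 4. The part of the array's compressed bright end in the members' values was not tested.

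**Figure D2:**
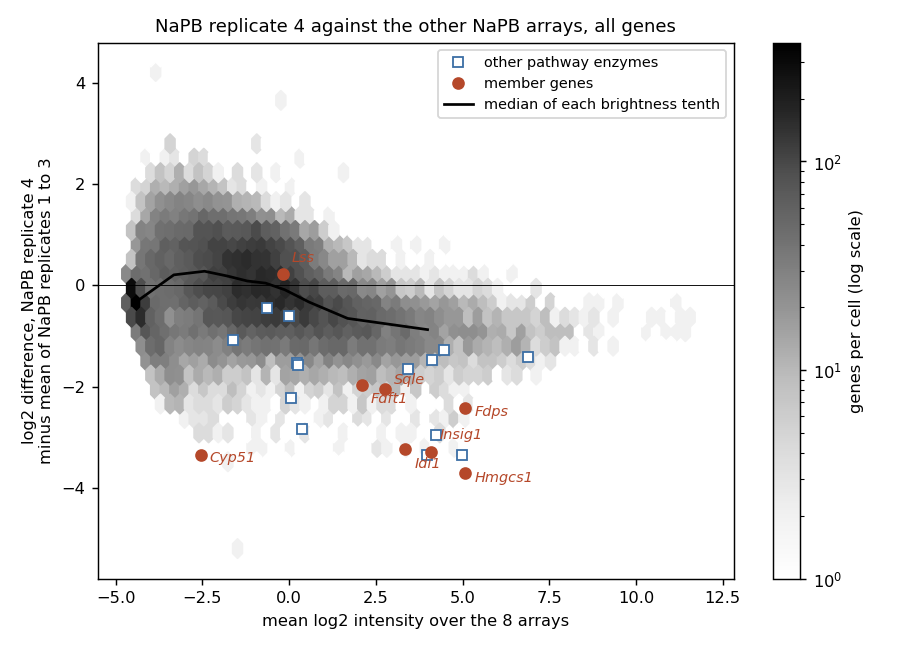
Log2 difference between NaPB replicate 4 and the mean of NaPB replicates 1 to 3 for all 20738 genes (grey cells, darker where more genes lie), plotted against mean log2 intensity over the 8 arrays. Filled points are the 8 genes, open squares the 14 other pathway enzymes, and the black line joins the medians of brightness deciles; 7 of the 8 genes lie well below the line and Lss lies above it.

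Markers of other cell types also differed between these arrays. The summed intensity of 3 measured neutrophil markers was 49.5 to 134 on NaPB replicates 1 to 3 and 9.41 on NaPB replicate 4, against 1.95 to 2.84 on the controls. S100a8 was 2.02 on NaPB replicate 4, the lowest NaPB value, and up to 126 on the other NaPB arrays, against 0.246 to 0.464 on the controls. It passed the test (log2 6.43, adjusted p = 0.0176). The sum on NaPB replicates 1 to 3 was mostly S100a8, and the other neutrophil markers did not follow it. S100a9 was 1.19 to 6.63 on the NaPB arrays, highest on NaPB replicate 4, against 1.06 to 2.00 on the controls (adjusted p = 0.677). Retnlg was 0.414 to 6.69 on the NaPB arrays, with 0.758 on NaPB replicate 4, against 0.373 to 0.586 on the controls (adjusted p = 0.724). The 6 Kupffer cell markers summed to 11.8 to 13.2 on the NaPB arrays and 16.01 to 18.1 on the controls, with Timd4 at the floor on all 8 arrays. Of these 6 markers 0 passed the test. Clec4f, Vsig4 and Adgre1 lay below every control on the NaPB arrays, while Cd5l, Marco and Timd4 overlapped between the diets. The hepatocyte markers did not move one way. Alb was 109 to 281 on the NaPB arrays, lowest on NaPB replicate 4, against 320 to 611 on the control arrays, and Apoa1 was 181 to 233 against 322 to 589, so both lay below every control on all 4 NaPB arrays without passing the test (adjusted p = 0.19 and 0.167). The diets were separate in this way, in either direction, for 7.04% of all genes. From the other NaPB arrays, NaPB replicate 4 was at −1.08 log2 units for Alb, −1.29 for Ttr, −0.57 for Serpina1a, −0.40 for Tat and −0.059 for Apoa1, and at 1.94 for Fgb. The fibrinogen gene Fgb was 680 on NaPB replicate 4, the highest NaPB value, and 161 on the lowest NaPB array, against 187 to 342 on the control arrays. The part of these cells and markers in the members' values was not tested. Sums over the other lists overlapped between the diets: 116 to 192 on NaPB and 92.2 to 191 on control arrays for 4 endothelial markers, 17.8 to 32.2 and 25.0 to 43.7 for 4 stellate cell markers, 2.58 to 3.93 and 1.30 to 3.91 for 4 bile duct markers, 2.16 to 3.06 and 1.17 to 2.90 for 4 adipocyte markers, and 0.749 to 1.55 and 0.917 to 1.34 for 4 pancreatic markers.

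Leaving out NaPB replicate 4, all 8 genes had a difference above 0 and a median of 1.03 log2 units, against 0.05 over all genes. Of the 8 genes 0 passed at an adjusted p below 0.05, where 1.76% of all genes did, and 5 had an unadjusted p below 0.05, where 13.9% did. These were the following, with unadjusted limma p of 0.00178 for Sqle, 0.00221 for Cyp51, 0.00864 for Idi1, 0.0114 for Fdps and 0.0208 for Hmgcs1. Leaving out control replicate 1 as well, 3 of the 8 genes passed, where 2.75% of all genes did: Idi1 (log2 1.46, adjusted p = 0.0292), Sqle (1.68, adjusted p = 0.0401) and Fdps (1.30, adjusted p = 0.0482). Among the controls the mean of the 8 genes was highest on control replicate 1, at 0.41 log2 units from the control mean. It was lowest of all arrays on NaPB replicate 4, at −1.57. Leaving out NaPB replicate 4, alone or with control replicate 1, therefore raises the mean difference of the 8 genes. The results of both settings are no independent support. With all arrays kept and weighted by limma, Sqle alone passed (1.55, adjusted p = 0.0435), where 3.92% of all genes did. The weights were lowest for NaPB replicate 4 (0.313) and control replicate 1 (0.308), so that call is no independent support either. Quantile normalization without NaPB replicate 4 called Sqle (1.25, adjusted p = 0.0377) and Cyp51 (1.15, adjusted p = 0.0417), where 2.89% of all genes were called. With any 1 array left out and no other change, 0 of 8 passed. Quantile normalization without NaPB replicate 4 was chosen after seeing the data, and it leaves out the array where the members were lowest. With an exact two-sided permutation test of each gene over the 8 arrays, p ran from 0.114 for Lss and 0.171 for Sqle to 0.971 for Hmgcs1, where the smallest p possible is 0.0286.

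The members were high and low on the same arrays, apart from Lss. Pearson's r between a gene and the mean of the other 7, over 8 arrays, was 0.98 for Idi1, 0.97 for Fdps and Fdft1, 0.96 for Hmgcs1, 0.88 for Insig1 and Cyp51, 0.86 for Sqle and −0.02 for Lss. Without NaPB replicate 4 it was 0.99 for Sqle, 0.97 for Fdps, 0.94 for Idi1, 0.92 for Fdft1, 0.91 for Hmgcs1, 0.75 for Insig1, 0.67 for Cyp51 and 0.56 for Lss. The points share arrays and scaling, and these values are a description. The profile was a common one on these arrays: of 10308 brighter genes outside the lists, 874 had an r of at least 0.9 with the mean of the 8 genes. The 8 genes most like it were Psmd14, a proteasome subunit, Ube4a, Top1, Pja1, Hspa4l, Adipor1, Tex2 and Eef1akmt1. Their r ran from 0.987 to 0.996 over the 8 arrays and from 0.965 to 0.991 without NaPB replicate 4. On NaPB replicate 4 they lay between −2.24 and −1.17 log2 units from the other NaPB arrays, shallower than Hmgcs1, Idi1, Insig1 and Fdps.

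Of 17 other listed enzymes and helpers of the pathway, 14 had a named feature and 0 passed the test in either direction. Their median log2 difference was 0.03, with 7 above 0 and 7 below. NaPB replicate 4 was the lowest array for 12 of the 14, against 28.3% of all genes and 39.5% of the brighter genes. NaPB replicates 1 to 3 were all above the controls for 4 of them, against 10.2% of all genes and 15.8% of the brighter genes. The 4 with the smallest p were Idi2, a paralogue of Idi1 (0.55 ± 0.31), Ebp, a sterol isomerase (−0.64 ± 0.38), Lbr, a nuclear envelope protein with sterol reductase activity (−0.39 ± 0.31), and Dhcr7, which makes cholesterol from its last precursor (0.46 ± 0.38); their adjusted p ran from 0.639 to 0.78.

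Msmo1 and Sc5d, which act after Cyp51, were also lowest on NaPB replicate 4. They had the deepest drops there of the 14 genes, at −3.34 and −3.36 log2 units from the other NaPB arrays, against a median of −1.55. Other enzymes after Cyp51 dropped less, at −2.83 for Nsdhl, −2.23 for Hsd17b7, −1.57 for Dhcr7, −1.41 for Ebp, −1.27 for Tm7sf2 and −1.07 for Lbr. Msmo1, the methylsterol oxidase, had intensities of 22.4, 42.4, 32.3 and 3.08 on the NaPB arrays, against 21.2, 11.7, 16.4 and 9.19 on the control arrays. Sc5d, a sterol desaturase, had 53.8, 48.2, 45.2 and 4.78 on the NaPB arrays, against 53.1, 30.0, 42.5 and 28.0 on the control arrays. Both lay far below every control on NaPB replicate 4 alone. Msmo1 was above every control on the first 3 NaPB arrays, and Sc5d overlapped the controls there. Without that array the log2 difference was 1.17 ± 0.36 for Msmo1 (adjusted p = 0.175) and 0.40 ± 0.29 for Sc5d (adjusted p = 0.629). Ebp was not above the controls on the first 3 NaPB arrays: it read 131, 119, 112 and 45.2 on the NaPB arrays, against 204, 112, 166 and 125 on the control arrays. Without NaPB replicate 4 the 14 genes had a median of 0.56, with 12 above 0, and 0 passed.

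**Figure D3:**
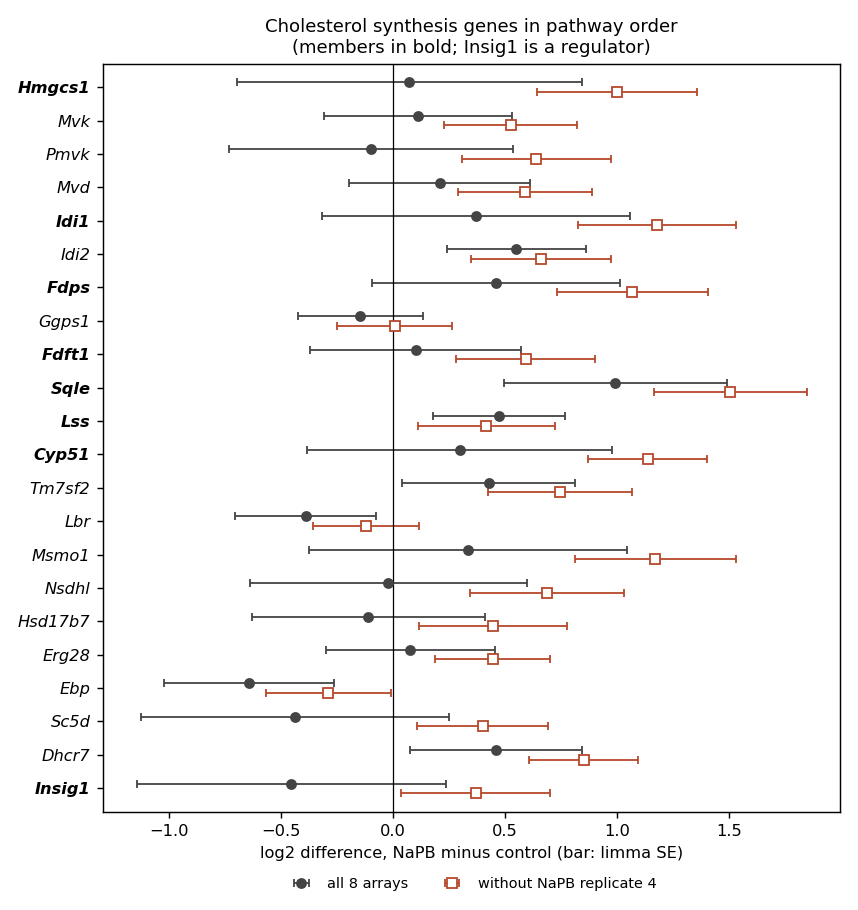
Log2 difference, NaPB minus control, with its limma SE, for the 8 genes (bold) and 14 other pathway genes, ordered from mevalonate synthesis at the top to cholesterol and then the regulator Insig1. Black circles use all 8 arrays and open squares leave out NaPB replicate 4, which shifts all genes but Lss to the right.

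Among 9 measured regulators of SREBP2, 0 passed. NaPB replicate 4 was the lowest array for 7, against 28.3% of all genes and 39.5% of the brighter genes. Srebf2, which encodes SREBP2 itself, read 0.359, 0.389, 0.282 and 0.186 on the NaPB arrays, against 0.462, 0.412, 0.496 and 0.319 on the control arrays. The diets overlapped, NaPB replicate 4 was again the lowest array, and the log2 difference was −0.51 ± 0.31 (adjusted p = 0.677). Srebf1, which encodes the SREBP1 proteins, read 0.600, 0.645, 0.572 and 0.249 on the NaPB arrays and 1.02, 0.737, 0.792 and 0.661 on the control arrays. It was the only regulator whose diets did not overlap, as was the case for 7.04% of all genes, and its difference was −0.71 ± 0.35 (adjusted p = 0.551). Insig2, the second INSIG gene, which in mouse liver is known for a transcript that responds to insulin and not to SREBP2, had 46.4, 37.9, 30.9 and 18.2 on the NaPB arrays, against 30.4, 19.8, 26.3 and 23.7 on the control arrays. Its drop on NaPB replicate 4 was −1.06 log2 units from the other NaPB arrays, against −3.29 for Insig1, and its difference was 0.35 ± 0.33 (adjusted p = 0.807). Rnf139, a ubiquitin ligase of the endoplasmic reticulum, had a difference of 0.62 ± 0.34 (adjusted p = 0.621), and 0.95 ± 0.23 without NaPB replicate 4 (adjusted p = 0.0874).

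Among 9 measured genes of sterol uptake and traffic 0 passed, and the median was −0.09. Tmem97, an SREBP2 target that binds the lysosomal cholesterol transporter NPC1, read 10.3, 9.33, 11.5 and 4.61 on the NaPB arrays, against 7.99, 3.79, 5.49 and 4.51 on the control arrays. Like Sqle it stayed within the control range on NaPB replicate 4, and its difference was 0.69 ± 0.36 (adjusted p = 0.596). It passed with array weights (adjusted p = 0.0486) and without control replicate 1 and NaPB replicate 4 (1.18, adjusted p = 0.0447). Npc1l1, a sterol uptake protein, was at −0.72 ± 0.33 (adjusted p = 0.502); Scarb1, the HDL receptor, was at −0.53 ± 0.29 and Npc1 at 0.25 ± 0.25. NaPB replicate 4 was the lowest array for 2 of these 9 genes, against 28.3% of all genes and 39.5% of the brighter genes. Those 2 were Stard4 and Acss2, named after their values were seen. Stard4 read 1.09 there, against 4.42 on the lowest control, and Acss2 1.42 against 6.10. Both were at −2.96 log2 units from the other NaPB arrays, beside a median of −2.83 for the members and −0.23 for this list.

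The receptors and targets of LXR, which is activated by oxysterols, and genes of sterol disposal had a median of −0.31 log2 units on NaPB replicate 4 from the other NaPB arrays; the difference from the members was not tested. Cyp7a1, the rate-limiting enzyme of bile acid synthesis, named after its values were seen, was at −2.87 on that array, close to the members' median of −2.83, Lpcat3 at −1.46 and Nr1h3 at −1.31. Of 13 measured 0 passed, and the median was −0.01. NaPB replicate 4 was the lowest array for 4, against 28.3% of all genes and 39.5% of the brighter genes. Cyp8b1, the hydroxylase of cholic acid synthesis, had 3.42, 1.23, 3.05 and 2.41 on the NaPB arrays, against 5.74, 3.21, 3.82 and 4.30 on the control arrays, a log2 difference of −0.82 ± 0.36 (adjusted p = 0.473). Abcg1, a sterol efflux transporter, was at 0.48 ± 0.26, Cyp27a1, a sterol hydroxylase, at −0.47 ± 0.31 and Soat1, which esterifies cholesterol, at 0.43 ± 0.34, with adjusted p from 0.614 to 0.768.

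Fatty acid synthesis genes, known as targets of SREBP1c, were also low on NaPB replicate 4. It was the lowest array for 12 of 14, against 28.3% of all genes and 39.5% of the brighter genes. With all arrays 0 of 14 passed and the median was 0.08. Elovl6, a fatty acid elongase, read 14.3, 10.9, 10.4 and 0.973 on the NaPB arrays, against 1.71, 1.22, 1.80 and 1.59 on the control arrays, and Thrsp, a lipogenic regulator, read 47.2, 55.0, 36.6 and 5.01 against 14.9, 9.56, 9.59 and 9.30. On the first 3 NaPB arrays both stood far above every control, and on the fourth below every control. Without NaPB replicate 4 both rose, Elovl6 by 2.91 ± 0.26 and Thrsp by 2.10 ± 0.28 on the log2 scale (adjusted p = 0.00148 and 0.00916), while with all arrays their differences were 2.01 ± 0.72 and 1.31 ± 0.66 (adjusted p = 0.327 and 0.573). Pnpla3, a lipid droplet protein gene, was at 1.06 ± 0.42 (adjusted p = 0.4). It passed with array weights (adjusted p = 0.0484) and without control replicate 1 and NaPB replicate 4 (1.25, adjusted p = 0.0371), as did Elovl6 and Thrsp. Scd1, a desaturase, was at −1.04 ± 0.58 (adjusted p = 0.632).

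The list of electron carriers includes those that serve Sqle, Cyp51 and later microsomal steps. With all arrays 0 of 4 passed, and 2 of 4 had an unadjusted limma p below 0.05, against 10.1% of all genes. Por, the P450 reductase, read 37.3, 77.4, 43.9 and 8.14 on the NaPB arrays, against 7.23, 3.71, 5.87 and 4.73 on the control arrays. All 4 NaPB arrays lay above all controls, NaPB replicate 4 only just, and the log2 difference was 2.61 ± 0.59 (adjusted p = 0.0761). It passed without NaPB replicate 4, at 3.26 ± 0.35 (adjusted p = 0.00336), and also with quantile normalization, with dim genes removed, with a robust variance trend and with array weights. Cyb5a, cytochrome b5, had 359, 373, 351 and 139 on the NaPB arrays, against 149, 86.6, 151 and 122 on the control arrays, a difference of 1.20 ± 0.37 (adjusted p = 0.228) that was 1.54 ± 0.27 without NaPB replicate 4 (adjusted p = 0.0288). Cyb5b, the outer mitochondrial form, was at −0.55 ± 0.65 and Cyb5r3, a cytochrome b5 reductase, at 0.08 ± 0.35. Whether the members differ from these carriers in their response was not tested.

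**Figure D4:**
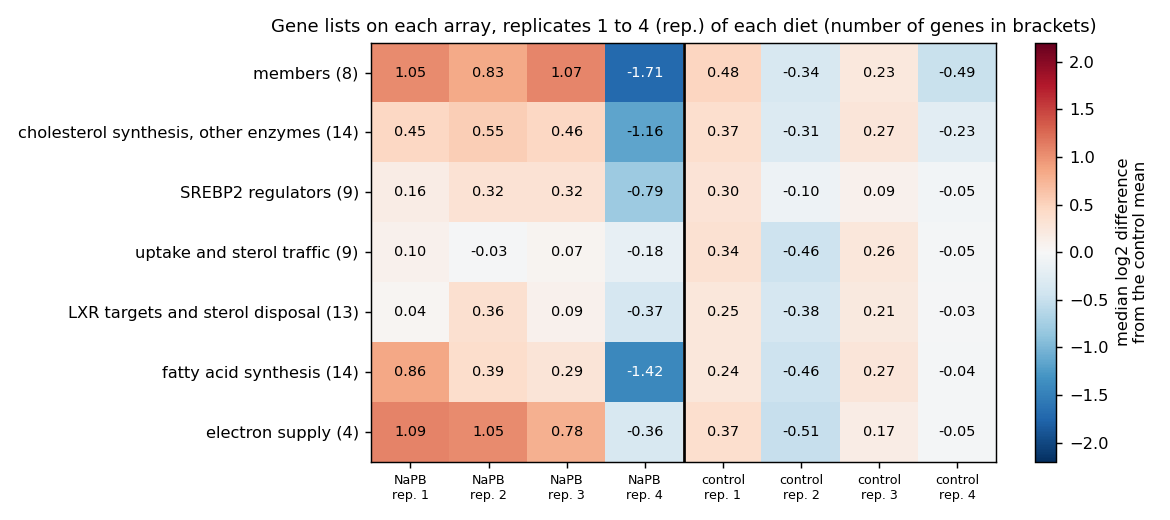
Median log2 difference from the control mean of each gene list on each array, NaPB arrays on the left of the black line and control arrays on the right, with the number of genes in brackets. The members stand at 0.83 to 1.07 on NaPB replicates 1 to 3 and at −1.71 on NaPB replicate 4, and the fatty acid synthesis list at 0.29 to 0.86 and −1.42, while the uptake and LXR lists lie between −0.37 and 0.36 on the NaPB arrays.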

How the data were processed

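The deposited values are intensities of single-colour Cy3 arrays on a linear scale, made by the authors with Agilent Feature Extraction 10.7, per the submitters' processing notes; how background, flags, scaling and floor were handled is not given in these sources. The 75th percentile was 0.952 to 0.974 on every array. Of 62976 features, 31465 carried 1 gene symbol; symbols were updated through RefSeq tables of GRCm38.p6, used for names and promoters.

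Here log2 of the deposited value was taken with no pseudocount, further scaling or filter, and each gene was represented by its brightest feature. limma 3.58.1 (R 4.3.3) fitted diet as the only term, two-sided, with Benjamini-Hochberg adjustment over 20738 genes and a threshold of 0.05; every adjusted p in the text is from limma. A value within 2 times the lowest of its array is at the floor. On simulated data for this comparison (20738 genes, 5 draws of 200 changed genes), 4.8% of genes changed by 1 log2 unit were called, 58.4% at 2, 87.2% at 3 and 94.8% at 4. The spread was drawn independently for each gene, with no array low in many genes at once, and the changed genes were picked at random. These rates are averages over genes and may not hold for the members, whose SE reached 0.77 for Hmgcs1. The number of arrays limits the precision. Tables used pandas 2.3.3 and numpy 2.4.6 under Python 3.11.15; figures used matplotlib 3.10.9.

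The members and lists were chosen with earlier results of these data known. Named genes are the members, in each other list the 4 genes of smallest p, further pathway enzymes, and the 8 genes most like the members' mean profile. Some further genes of the lists were named after their values were seen. Genes of the lists with no named feature were not analysed here. Alternatives were quantile normalization, a 75th percentile shift, a filter on dim genes, the mean of all features, single features, a pseudocount of 1, array weights, a robust variance trend, the replicate number as a block, a threshold of 0.1, leaving out arrays, and an exact permutation test of each member.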

Additional observations from a re-analysis of the deposited data

Results flagged for a closer look

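Within a diet, 14 of 68 groups of 4 arrays (34 genes, 2 diets) had an array set apart from the rest by Dixon's test at the 95% level, where chance gives about 1 in 20. NaPB replicate 4 was that array in 13 of them, 5 in members. Over all genes a NaPB array stood apart for 8.66% and a control array for 6.49%. NaPB replicate 4 stood apart at the low end for 5.27% of all genes and 9.18% of those brighter than the median gene. The 34 genes were named in part for small p and are not a random draw, so 1 in 20 is not their expected rate. For the members the low intensity on NaPB replicate 4 was 5.02 for Hmgcs1, where the nearest NaPB array had 57.5. It was 3.29 for Sqle (nearest 13.1), 2.17 for Idi1 (nearest 19.4), 11.2 for Fdps (nearest 54.8) and 1.61 for Fdft1 (nearest 5.95). Among the other pathway and lipid genes NaPB replicate 4 was low at 45.2 for Ebp, 4.78 for Sc5d, 0.249 for Srebf1, 0.973 for Elovl6, 5.01 for Thrsp, 139 for Cyb5a and 1.10 for Cyb5b. It was high for Npc1l1, at 0.230. Control replicate 1 was high for Thrsp, at 14.9, where the nearest control array had 9.59.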

How the results depend on the processing

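The number of genes called was 209 with all arrays. It was 328 with quantile normalization, 812 with array weights, 600 with quantile normalization without NaPB replicate 4, 364 at an adjusted p below 0.1, 643 with every feature tested singly, and 88 to 365 with 1 array left out. Without control replicate 1 and NaPB replicate 4 together it was 570. Deviations of same-numbered arrays correlated at 0.23, −0.29, 0.038 and 0.23 for numbers 1 to 4. Values of mixed sign neither establish nor exclude a pairing by replicate number. With the replicate number as a block 135 genes and 0 members were called. Of the members 1 was called higher with array weights, 3 without control replicate 1 and NaPB replicate 4, 2 with quantile normalization without NaPB replicate 4, and 0 to 0 with 1 array left out. Those calls were Sqle at 1.55, then Sqle at 1.68, Idi1 at 1.46 and Fdps at 1.30, then Sqle at 1.25 and Cyp51 at 1.15; why these settings differ was not tested. Without control replicate 1 and NaPB replicate 4 the uncalled members were at 1.14 for Hmgcs1, 0.73 for Fdft1, 1.04 for Cyp51 and 0.57 for Insig1, with Cyb5r3 at 0.43 and Msmo1 at 1.37.

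The sign turned with quantile normalization for Hmgcs1 (−0.044), Fdft1 (−0.020) and Cyb5r3 (−0.015). Cyb5r3 also turned with the mean of its features (−0.15) and at its other feature (−0.38). With array weights the sign turned for Insig1 (0.32), Cyb5b (0.16) and Sc5d (0.35). Without control replicate 1 and NaPB replicate 4 it turned for Insig1 (0.57), Cyb5b (0.44) and Sc5d (0.57), and with quantile normalization without NaPB replicate 4 for Insig1 (0.080) and Sc5d (0.066). With 1 array left out, Hmgcs1 ran from −0.31 to 1.00, Sqle from 0.79 to 1.504, Idi1 from 0.088 to 1.18, Fdps from 0.23 to 1.07, Fdft1 from −0.11 to 0.59, Lss from 0.31 to 0.64, Cyp51 from −0.12 to 1.14 and Insig1 from −0.84 to 0.37. Cyb5b ran from −0.85 to 0.22, Cyb5r3 from −0.11 to 0.40, Msmo1 from −0.091 to 1.17, Sc5d from −0.76 to 0.40 and the median over the members from 0.042 to 1.03. Cyp51 was removed by the filter on dim genes.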
